A study of Mus musculus with 2 samples.

Results

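The early limb patterning homeobox genes described here are Lhx2, Lhx9, Lmx1b, Msx1, Msx2, Shox2, Alx1, Alx4, Emx2 and Barx1. They were chosen by symbol, with earlier results of these data known, and all 10 were found among the 32285 genes of the 2 deposited count matrices. The study profiled single cells from the muscles of wild-type C57Bl/6 mouse embryos at the embryonic stages E12.5 and E15.5 (days after conception), with 1 library per stage. Forelimb and hindlimb tissue shared each library, cells were freed with trypsin and by mechanical means, and 20000 cells were loaded on the 10x Chromium 3′ v3.1 system with a target of 10000. The labels used here give neither the number nor the sex of the embryos in a library, so all values below compare 2 libraries and no p-value was computed.

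Homeobox genes encode transcription factors that bind DNA through a homeodomain. In the limb bud such factors mark positions along the limb's axes: the LIM-homeodomain factor Lmx1b specifies dorsal identity downstream of Wnt7a, Lhx2 and Lhx9 take part in outgrowth under signals of the apical ectodermal ridge, and Alx4 helps keep Shh expression posterior. Msx1 and Msx2 respond to BMP signals, Shox2 is needed for growth of the proximal limb skeleton, Emx2 for the scapula, and Barx1 is known from the forming joints. Alx1 is best known from the craniofacial mesenchyme.

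Lhx2 with Lhx9 and Alx1 with Alx4 are close relatives, and their homeobox DNA is shown because it is the feature that defines the genes and because it shows how far each pair can be told apart at the DNA level. Each line gives the 180 coding bases of the homeobox, 5′ to 3′ on the transcribed strand, read from the GENCODE vM21 transcript sequences (build GRCm38), and capitals mark the bases that differ from the other gene of the pair. The Lhx2 homeobox lies in exon 4 of 5 (chr2:38359966-38360103, plus strand) and exon 5 (chr2:38368842-38368883), and that of Lhx9 in exon 4 of 5 (chr1:138832702-138832839, minus strand) and exon 5 (chr1:138831583-138831624). The Alx1 homeobox spans exons 3 and 4 of 6 (chr10:103025135-103025272 and chr10:103022264-103022305, minus strand), and that of Alx4 exons 2 and 3 of 4 (chr2:93668528-93668665 and chr2:93675296-93675337, plus strand).
Lhx2: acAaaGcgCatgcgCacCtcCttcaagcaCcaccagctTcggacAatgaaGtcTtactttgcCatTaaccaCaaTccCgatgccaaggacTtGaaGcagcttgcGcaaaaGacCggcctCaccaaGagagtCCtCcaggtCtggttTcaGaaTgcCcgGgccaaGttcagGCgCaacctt
Lhx9: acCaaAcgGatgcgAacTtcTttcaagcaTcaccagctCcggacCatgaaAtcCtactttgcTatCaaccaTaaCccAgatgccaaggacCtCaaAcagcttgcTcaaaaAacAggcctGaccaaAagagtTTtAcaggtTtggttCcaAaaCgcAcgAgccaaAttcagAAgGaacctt
Alx1: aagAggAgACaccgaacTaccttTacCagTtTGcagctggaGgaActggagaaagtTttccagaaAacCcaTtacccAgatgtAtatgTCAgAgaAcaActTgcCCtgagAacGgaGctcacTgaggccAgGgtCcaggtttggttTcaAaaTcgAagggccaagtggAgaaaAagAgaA
Alx4: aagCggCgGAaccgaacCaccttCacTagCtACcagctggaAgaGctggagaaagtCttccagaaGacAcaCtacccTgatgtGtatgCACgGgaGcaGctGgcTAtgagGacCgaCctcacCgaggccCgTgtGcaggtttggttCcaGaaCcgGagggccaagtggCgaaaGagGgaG
Lhx2 and Lhx9 shared 143 of 180 bases (79.4%), and all 60 of their codons encoded the same amino acid, so each of the 37 differing bases was silent. Alx1 and Alx4 shared 138 bases (76.7%) and 55 of 60 amino acids. The longest identical run was 12 bases for Lhx2 with Lhx9.

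After removal of barcodes with few genes, a high mitochondrial share or a doublet-like profile, 11001 cells remained at E12.5 (median 2318 UMIs) and 3916 at E15.5 (median 9285.5 UMIs). A UMI is a tag that counts 1 captured RNA molecule. The libraries shared 17 barcode sequences. Cells were clustered within each library without using the members, and clusters were called "-like" from marker lists. Connective tissue-like cells formed the largest class (6458 and 1694 cells), followed at E12.5 by chondrocyte-like (1225, against 505 at E15.5) and joint-like cells (1195, with no joint-like cluster at E15.5). Muscle lineage-like cells made up 5.37% and 10.1% of cells although the tissue is labelled skeletal muscle. The summed level of the 15 muscle markers in them was 12947 CPM (UMIs per 1000000 UMIs of the same cells) in the younger and 6292 CPM in the older library, while connective tissue-like cells held 130 and 86.0 CPM. Tenocyte-like (428 and 159), endothelial-like (131 and 153) and, at E15.5, mural-like cells (127) were smaller classes, and 841 and 634 cells stayed unnamed. The summed level of the 6 joint markers in the unnamed cells was 1287 CPM at E12.5 and 1267 CPM at E15.5. Chondrocyte-like cells of E15.5 held 904 CPM of them. The lack of a joint-like cluster at E15.5 therefore does not show that joint cells were absent. Naming, and so any class comparison, rests on rebuilt clusters. Tenocyte-like cells held the 7 tenocyte markers at 527 CPM at E12.5 and at 3328 CPM at E15.5. Comparisons in that class may therefore set unlike cells side by side.

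Levels of members are likewise given as CPM. Since reads come from 3′ ends and are not divided by length, levels are compared within a gene, not between genes. A gene was called lower or higher at E15.5 where its log2 ratio (E15.5 over E12.5) was past 1 in size and the ratio's 95% interval lay beyond 0, among genes with at least 20 UMIs in the cells compared. All intervals cover counting error only.

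Over all kept cells, each of the 10 members was lower at E15.5 than at E12.5. Among all 17068 genes tested in the same way, 20.2% were lower and 11.6% higher. Because the members were chosen with earlier results of these data known, shares over all genes are given here and below for scale only. The median log2 ratio was -1.71 over the members and -0.31 over all genes tested. The largest difference was that of Lhx9, at 45.4 CPM (1281 UMIs) at E12.5 and 2.53 CPM (103 UMIs) at E15.5, a 17.9-fold lower level, and 120 of the 17068 genes had a lower ratio. Msx2 followed with 2.20 and 0.221 CPM, although the E15.5 value rests on 9 UMIs. The smallest difference was that of Msx1, at 6.27 and 2.78 CPM. No member therefore had a higher level in the older library, and the size of the difference ranged from 2.26-fold to 17.9-fold.

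Within connective tissue-like cells, 9 of the 10 members were lower at E15.5, where 23.2% of 15014 genes were lower and 10.3% higher. Emx2 was the exception: its level went from 76.9 to 40.8 CPM, and its log2 ratio of -0.91 (-1.05 to -0.78) fell short of the 2-fold limit. It passed that limit under 5 alternatives, with -1.32 in male cells and -0.45 in female cells as the ends of its range. The median ratio was -1.79 over the members and -0.36 over all genes tested. When ratios were taken relative to the median gene, 2167 genes were lower and 2393 higher, against 3483 and 1547 without this step, and 7 of 10 members stayed lower. The members' ratios relative to the median gene ran from -5.08 for Lhx9 to -0.55 for Emx2, with Alx1 at -0.79 and Alx4 at -0.83 no longer past the limit. Levels of other cell types' markers moved with these results in the same cells: the summed level of 12 chondrocyte markers went from 1742 to 118 CPM, that of 6 joint markers from 620 to 347 CPM, and that of 14 connective tissue markers from 6705 to 17730 CPM. Their part in the members' differences was not tested.

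**Figure D1:**
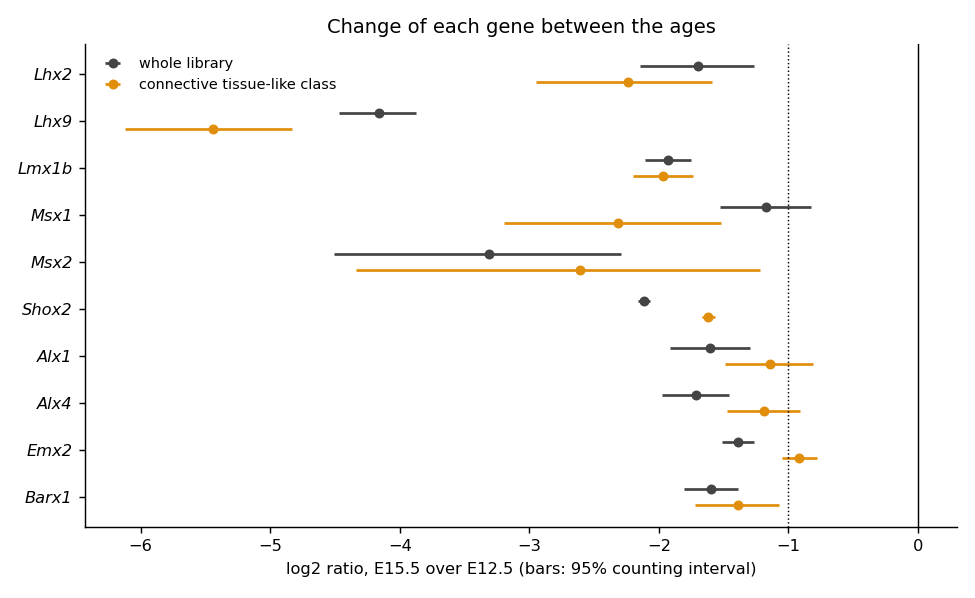
Log2 ratio of the level at E15.5 over that at E12.5 (x axis) for each of the 10 genes (y axis), over the whole library and in the connective tissue-like class; points are ratios, bars are 95% counting intervals, and the dotted line marks the 2-fold limit. All points lie left of 0, Lhx9 farthest at -4.16 and -5.44, and only Emx2 in connective tissue-like cells lies inside the limit, at -0.91.

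**Figure D2:**
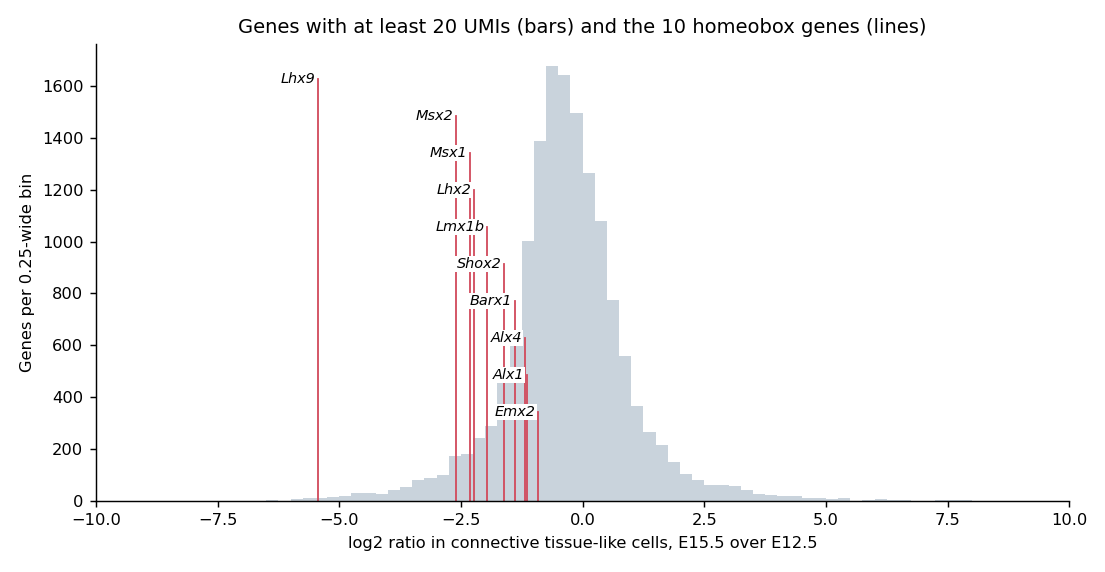
Histogram of the log2 ratio of E15.5 over E12.5 in connective tissue-like cells (x axis) across genes with at least 20 UMIs (y axis, genes per bin of 0.25), with a vertical line at each of the 10 genes, whose heights carry no value. All lines lie left of the median of all genes, -0.36, from -0.91 for Emx2 to -5.44 for Lhx9.

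Shares of equally deep cells were also lower at E15.5 for most members. Because E15.5 cells were sequenced more deeply, each connective tissue-like cell was thinned to 2000 UMIs, which kept 4165 younger and 1661 older cells and left out 2293 and 33 shallower cells. Shox2 was detected in 60.9% (59.4 to 62.4) of thinned cells of the younger and 35.9% (33.6 to 38.2) of the older library. Emx2 was detected in 520 of 4165 and 106 of 1661 thinned cells, Lhx9 in 9.17% and 0.241%, and Lmx1b in 8.64% and 2.41%. The other 6 members were each detected in at most 3.75% of cells at E12.5. The intervals of the ages were apart for 8 of 10 members, all lower at E15.5, and overlapped for Msx2 and Alx1. Of the 15014 genes tested in this class, 33.1% had a share lower at E15.5 with intervals apart and 14.6% a higher one. Without thinning, only Lhx9 had a lower share beyond its interval at E15.5 (10.6% and 1.06%), while Shox2 (62.2% and 76.3%), Emx2 (13.8% and 24.7%) and Alx4 (4.46% and 6.73%) had higher ones, so this count turns on the depth of the cells. In thinned connective tissue-like cells none of the 10 members was detected in 25.5% of the younger and 56.2% of the older cells. With Shox2 set aside, 64.6% and 87.7% of cells held none of the other 9.

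At E12.5 most UMIs of each member lay in mesenchymal or unnamed clusters. Connective tissue-like cells held 73.5% of Shox2 UMIs, 83.2% of Emx2 UMIs and 78.5% of Lmx1b UMIs at E12.5, against 57.9% of all UMIs. Msx1 (41.2%), Msx2 (45.2%) and Barx1 (46.2%) had smaller shares in that class. At E15.5 Msx1 was the exception, with 43.4% of its UMIs in endothelial-like, 27.4% in mural-like and 14.2% in connective tissue-like cells. Among muscle lineage-like cells each member other than Shox2 had at most 10 UMIs at either age. Shox2 reached 130 UMIs (53.2 CPM) there at E12.5, and a UMI was found in 8.64% (6.42 to 11.3) of 544 thinned muscle lineage-like cells and in 7.69% (3.58 to 14.1) of 117 thinned endothelial-like cells (16.2% and 16.0% unthinned). These cells had median depths of 3747 and 3913 UMIs, against 2354.5 in connective tissue-like cells. The share in endothelial-like cells, a type that should lack most members, is taken here as the background level. The muscle lineage-like share did not differ from it beyond the intervals, and whether muscle cells express the gene was not tested. The source of these UMIs was not tested. At E15.5 the share in muscle lineage-like cells was 0.256% of 391 cells. Shox2 was called lower at E15.5 in muscle lineage-like cells (53.2 and 3.40 CPM; 17.8% of genes were lower there), in endothelial-like cells (45.2 and 5.25 CPM; 11.1%) and in Schwann-like cells (88.4 and 6.41 CPM; 9.04%). The E12.5 share in endothelial-like cells is taken as background, and that in muscle lineage-like cells overlapped it. No change of expression is therefore read from either class. The Schwann-like call rests on few molecules, 14 in the younger and 7 in the older library. Its E12.5 interval, 48.3 to 148 CPM, overlapped that of erythroid-like cells, which held Shox2 at 97.8 CPM (48.8 to 175) on 11 UMIs. No change of expression is therefore read from Schwann-like cells either. Higher genes made up 3.99% in muscle lineage-like and 5.23% in Schwann-like cells, and no member was among them. No member reached 20 UMIs in immune-like cells (12% of genes lower, 7.04% higher) or erythroid-like cells (11% and 24.5%).

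**Figure D3:**
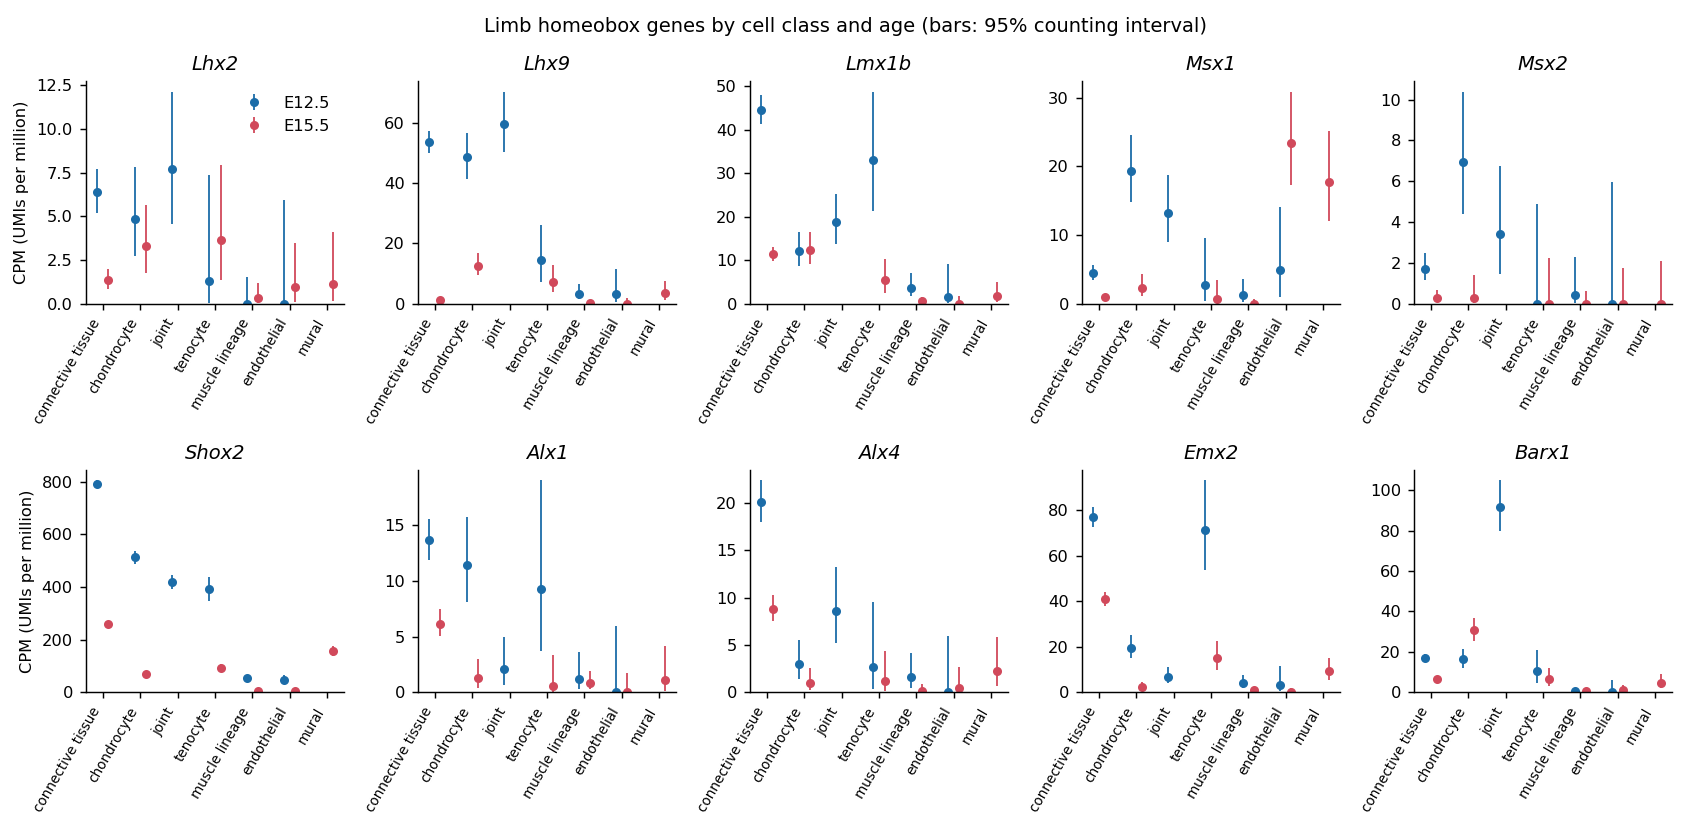
Level in CPM (y axis, its own scale for each gene) of the 10 genes in 7 cell classes (x axis) at both ages; points are levels and bars are 95% Poisson intervals, and a class without a cluster at an age has no point. In connective tissue-like cells Shox2 goes from 792 to 258 CPM and Lhx9 from 53.7 to 1.24 CPM.

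Among the LIM-homeodomain genes, Lhx9 (ENSMUSG00000019230, chr1:138825186-138848577, minus strand) had the largest difference of all members. In connective tissue-like cells it had 876 UMIs (53.7 CPM) at E12.5 and 22 UMIs (1.24 CPM) at E15.5. The log2 ratio was -5.44 (-6.12 to -4.83), and only 72 of 15014 genes (0.480%) had a lower ratio. In chondrocyte-like cells the difference was smaller, from 48.8 to 12.7 CPM (-1.94, -2.43 to -1.48), and in male cells alone it was -1.25 and not past the rule. In tenocyte-like cells it went from 14.5 to 7.28 CPM on 11 and 12 UMIs, which was not called. Joint-like cells at E12.5 held 59.8 CPM. At E12.5 Lhx9 was highest in the connective tissue-like cluster led by Hoxa11os, Chrdl1 and Ebf1 (88.8 CPM) and in that led by Rspo3, Ccnb2 and Cxcl14 (88.0 CPM), and these neighbours do not differ beyond their counting intervals. At E15.5 the highest clusters were both chondrocyte-like: that led by Col9a3, Sox9 and Nusap1 (17.4 CPM) and that led by Mia, Sox9 and Matn4 (10.6 CPM). Chondrocyte-like cells thus held 48.5% of Lhx9 UMIs at E15.5, against 12.6% at E12.5.

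Lhx2 (ENSMUSG00000000247, chr2:38339281-38369733, plus strand), the relative with the same homeodomain, was detected far more thinly. Connective tissue-like cells had 104 UMIs (6.37 CPM) in the younger and 24 UMIs (1.35 CPM) in the older library, a ratio of -2.24 (-2.95 to -1.59). Chondrocyte-like cells had 16 and 13 UMIs, and the ratio of -0.55 (-1.72 to 0.60) was not called. The E12.5 cluster with the highest level was led by histone genes (Hist1h1b, Hist1h2ap and Hist1h2ae; 10.9 CPM), followed by the chondrocyte-like one led by Hapln1, Matn1 and Matn3 (9.98 CPM on 7 UMIs). The highest at E15.5 was led by Spink6, Anxa8 and Tppp3 (13.9 CPM), followed by the chondrocyte-like one led by Col9a3, Sox9 and Nusap1 (7.48 CPM). Cells with an Lhx2 UMI at E12.5 also held Lhx9 more often: 12 of 50 thinned cells (24.0%, 13.1 to 38.2) against 8.99% of the cells without Lhx2.

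Lmx1b (ENSMUSG00000038765, chr2:33560965-33640511, minus strand), the dorsal factor, had 727 UMIs (44.5 CPM) at E12.5 and 203 UMIs (11.4 CPM) at E15.5 in connective tissue-like cells, a ratio of -1.97 (-2.20 to -1.74). In tenocyte-like cells it was also lower, from 33.0 to 5.46 CPM (-2.60, -3.88 to -1.45). Chondrocyte-like levels were 12.0 and 12.4 CPM, and the ratio of 0.04 had an interval of -0.59 to 0.68. Its highest E12.5 clusters were those led by Hist1h3c, Cenpf and Hist1h2bm (72.6 CPM) and by Calb2, Apcdd1 and Arhgap20 (68.4 CPM). At E15.5 the cluster led by Spink6, Anxa8 and Tppp3 (29.6 CPM) and an unnamed cluster led by Nefm, Tac1 and Sfrp2 (29.1 CPM) were highest.

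The gene whose level across the 21 E12.5 clusters of at least 50 cells was most like that of Lmx1b, among 6569 genes, was C130021I20Rik (Pearson's r = 0.95 over clusters that share 1 library). It is an antisense-type RNA gene on the opposite strand (chr2:33641193-33646354) that starts next to Lmx1b and is transcribed away from it. Over the whole library it went from 45.05 to 10.8 CPM (-2.06), beside 32.8 to 8.63 CPM for Lmx1b (-1.93). Its connective tissue-like level went from 61.2 to 16.3 CPM. The genes' RefSeq start sites are separated by 94 bases, chr2:33641099-33641192 (GRCm38.p6), printed here 5′ to 3′ on the plus strand because it is the stretch between both starts.
Lmx1b to C130021I20Rik: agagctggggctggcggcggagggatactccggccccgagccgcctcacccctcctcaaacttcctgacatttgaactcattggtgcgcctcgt
The stretch is 63.8% G and C and holds 7 CG pairs. By the GENCODE annotation the starts lie 681 bases apart. The pairing of likeness and position is a description of these 2 libraries.

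The Msx genes differed from the other members in where they were found. Msx1 (ENSMUSG00000048450, chr5:37820485-37824583, minus strand) was highest at E12.5 in the chondrocyte-like clusters led by BC006965, Hapln1 and Matn1 (24.5 CPM) and by Hapln1, Matn1 and Matn3 (15.7 CPM), followed by joint-like cells (13.2 CPM). Its chondrocyte-like level was 64 UMIs (19.3 CPM) at E12.5 and 9 UMIs (2.28 CPM) at E15.5, a ratio of -3.08 (-4.27 to -2.06). Connective tissue-like cells went from 4.47 to 0.899 CPM (73 and 16 UMIs; -2.32, -3.20 to -1.52). In endothelial-like cells the order was the opposite: 3 UMIs (4.84 CPM) at E12.5 and 49 UMIs (23.4 CPM) at E15.5, a ratio of 2.27 (0.64 to 4.598), where 4.81% of 8986 genes were higher. At E15.5 its highest clusters were the endothelial-like one led by Fabp4, Cdh5 and Cldn5 (24.1 CPM) and the mural-like one led by Rgs5, Gucy1a1 and Acta2 (17.7 CPM), and no mesenchymal cluster passed 3.55 CPM. In endothelial-like cells the summed level of the 8 mural markers went from 59.7 to 31.0 CPM. The E12.5 library had no mural-like cluster, and the part of mural cells in the endothelial-like Msx1 level was not tested. The higher endothelial level rests on 3 UMIs at E12.5, and in cells called female alone the ratio was 1.25 and not past the rule. Thinned shares were 1 of 117 and 4 of 133 endothelial-like cells, whose intervals overlap, and unthinned shares were 1.53% and 18.3%. At E15.5 Msx1 had 0 UMIs in muscle lineage-like cells, which allows up to 0.486 CPM.

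Msx2 (ENSMUSG00000021469, chr13:53466884-53473074, minus strand) was the most thinly detected member, with 62 UMIs in the younger and 9 in the older library. It had 28 and 5 UMIs in connective tissue-like cells (1.72 and 0.281 CPM; -2.61, -4.34 to -1.22). Chondrocyte-like cells had 23 UMIs and 1 UMI (6.93 and 0.253 CPM; -4.77, -10.1 to -2.15). The clusters with most Msx2 at E12.5 were the same chondrocyte-like pair as for Msx1, at 8.56 and 7.63 CPM, and no E15.5 cluster of at least 50 cells passed 0.973 CPM. Msx2 had no UMI in endothelial-like cells at either age, which at E15.5 allows up to 1.43 CPM. Across the 21 E12.5 clusters the levels of Msx1 and Msx2 had a correlation of 0.68. The homeodomain core motif TAATTA, searched on both strands, was found in the 250 bases before the start of 1 of 9 RefSeq member promoters, that of Msx2, 187 bases before its start; 4.84% of 32851 promoters hold it. No promoter entry was matched for Alx1 and Alx4.

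Shox2 (ENSMUSG00000027833, chr3:66971727-66981771, minus strand) was detected in more cells than any other member. In connective tissue-like cells it had 12931 UMIs (792 CPM, 779 to 806) at E12.5 and 4594 UMIs (258 CPM, 251 to 266) at E15.5, a ratio of -1.62 (-1.67 to -1.57). It was lower by a larger step in chondrocyte-like cells, from 513 to 71.5 CPM (-2.84, -3.03 to -2.66), where 13.7% of 12028 genes were lower, 9.4% higher and 6 of the 9 members tested were lower. In these chondrocyte-like cells the summed level of the 12 chondrocyte markers went from 12818 to 5262 CPM, that of the 14 connective tissue markers from 2975 to 8534 CPM and that of the 6 joint markers from 520 to 904 CPM. In tenocyte-like cells it went from 392 to 92.2 CPM (-2.09, -2.38 to -1.80), where 23.1% of 9219 genes were lower, 8.1% higher and 3 of the 4 members tested were lower. There the 7 tenocyte markers went from 527 to 3328 CPM, the chondrocyte markers from 5060 to 392 CPM and the joint markers from 1747 to 562 CPM. The connective tissue markers went from 5586 to 16073 CPM and the 9 erythroid markers from 268 to 5081 CPM. Of the limb identity genes, Tbx5 went from 359 to 10.9 CPM in these tenocyte-like cells and Pitx1 from 80.5 to 83.7 CPM. The part of these markers and limb genes in the members' differences in both classes was not tested. The E12.5 clusters led by Calb2, Apcdd1 and Arhgap20 (1190 CPM) and by Hist1h3c, Cenpf and Hist1h2bm (1070 CPM) were highest, and the lowest mesenchymal cluster, led by Gria2, Isl1 and Ptn, held 146 CPM. At E15.5 the cluster led by Twist2, Cxcl14 and Thy1 held 367 CPM and that led by Fst, Sfrp4 and Tmem158 held 302 CPM. Mural-like cells at E15.5 held 276 Shox2 UMIs (158 CPM), and 24.4% (17.2 to 32.8) of 127 thinned mural-like cells had a Shox2 UMI, against 1.504% (0.183 to 5.33) of 133 endothelial-like cells. The summed level of the 14 connective tissue markers was 7164 CPM in the mural-like and 1603 CPM in the endothelial-like cells of that library, and its part in the mural-like Shox2 level was not tested. The gene most like Shox2 across E12.5 clusters was Wnt5a (r = 0.95), a limb outgrowth signal, whose connective tissue-like level went from 199 to 148 CPM (-0.43) and was not called. Shox2 overlaps Rsrc1 on the opposite strand (5097 and 6773 UMIs of its own) at the start of both genes. Whether counting used the strand is not given in the sources used here, and any part of overlap reads in the Shox2 count was not tested.

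**Figure D4:**
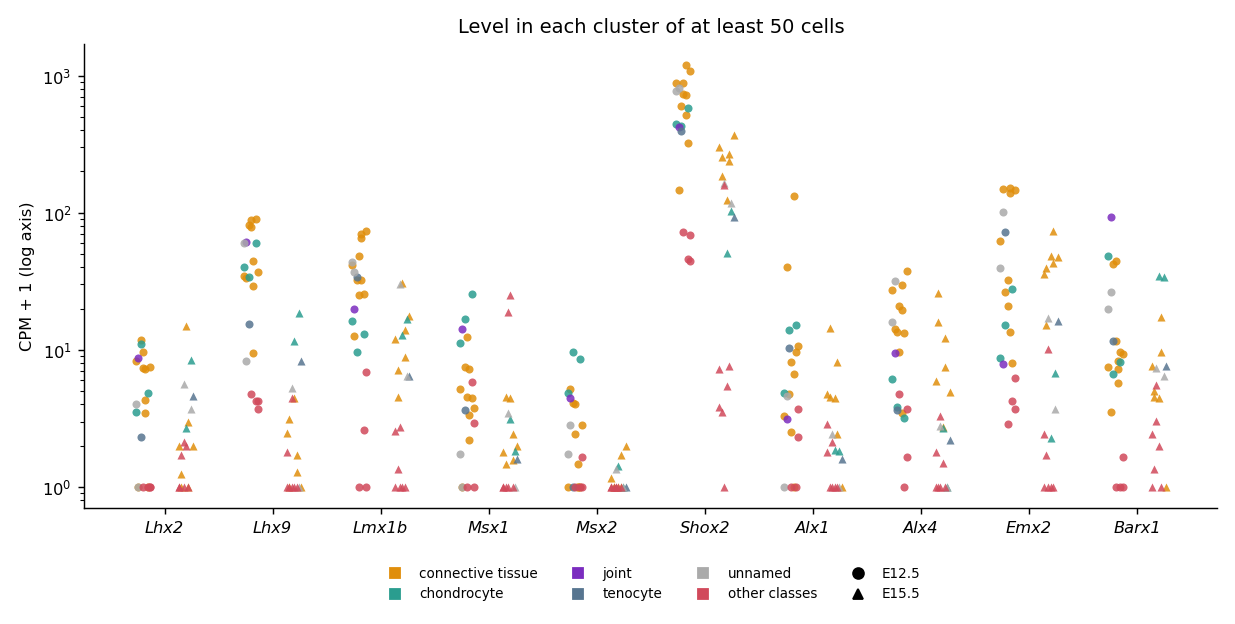
Level as CPM + 1 (log y axis) of each of the 10 genes (x axis) in each cluster of at least 50 cells; circles are E12.5 clusters, triangles are E15.5 clusters, and colours give the class. The highest Alx1 circle is the cluster led by Dcn, Kera and Grem1 (130 CPM), the highest Barx1 circle is the joint-like cluster (91.8 CPM), and the highest Msx1 triangle is endothelial-like (24.1 CPM).

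Alx1 (ENSMUSG00000036602, chr10:102998707-103030215, minus strand) was concentrated in few cells. At E12.5 the connective tissue-like cluster led by Dcn, Kera and Grem1 held 107 of its 278 UMIs in 394 cells (130 CPM, 107 to 157), and the next, led by Gria2, Isl1 and Ptn, held 39.1 CPM (28.7 to 51.9). At E15.5 the highest clusters were led by Aldh1a3, Ngfr and Cntfr (13.5 CPM) and by Hmmr, Nusap1 and Esco2 (7.13 CPM). Connective tissue-like cells went from 223 UMIs (13.7 CPM) to 110 UMIs (6.18 CPM), a ratio of -1.14 (-1.49 to -0.81). Chondrocyte-like cells went from 11.4 to 1.27 CPM (-3.17, -4.88 to -1.83).

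The Alx1 difference was not shared by all cells. Cells were called female by Xist or male by Y-linked genes, and embryo and sex cannot be told apart. Cells with both or neither, 31.7% at E12.5 and 15.6% at E15.5, were left as unclear. Connective tissue-like cells of unclear sex held 103 Alx1 UMIs (23.3 CPM) at E12.5 and 2 UMIs (1.64 CPM) at E15.5, a ratio of -3.82 (-6.89 to -1.93). In female connective tissue-like cells Alx1 had 39 UMIs (4.31 CPM) at E12.5 and 94 UMIs (7.14 CPM) at E15.5, a ratio of 0.73 (0.17 to 1.30). In male cells it had 81 UMIs (28.4 CPM) and 14 UMIs (4.09 CPM), a ratio of -2.80 (-3.73 to -1.97). The E12.5 cluster led by Gria2, Isl1 and Ptn held 195 male and 48 female cells, and without it the Alx1 ratio was -0.91 and no longer past the limit. With at least 1000 genes per cell it was -0.55. Over the whole library the female ratio of Alx1 was 0.15 (-0.34 to 0.65), and the male ratio of Msx1 was 0.40 (-0.60 to 1.47). Other members also differed in level: at E12.5 Emx2 was 55.2 CPM in female and 112 CPM in male connective tissue-like cells, and Lhx9 67.8 and 25.6 CPM. The share of cells with hindlimb genes moved with sex at E12.5: 44.7% of 2364 female and 22.4% of 753 male thinned cells held Pitx1 or Tbx4 without Tbx5. At E15.5 these shares were 16.7% and 17.7%. The part of limb and embryo in the sex differences was not tested. Among connective tissue-like cells 8 of 10 members were lower at E15.5 in female cells, where 22.5% of 14111 genes were lower. In male cells 6 of the 7 members with enough UMIs were lower, beside 19.6% of 11768 genes.

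Alx4 (ENSMUSG00000040310, chr2:93642384-93681339, plus strand) was lower in connective tissue-like cells, from 328 UMIs (20.1 CPM) to 157 UMIs (8.82 CPM), a ratio of -1.19 (-1.47 to -0.91) that was -0.56 and not called in male cells alone, and these cells held 81.4% and 88.7% of its UMIs at the 2 ages. Chondrocyte-like cells had 10 and 4 UMIs, under the minimum. At E12.5 it was highest in the cluster led by Hist1h3c, Cenpf and Hist1h2bm (36.3 CPM) and in an unnamed one led by Col6a5, Aspn and Tbx3os1 (30.7 CPM). At E15.5 the highest were the cluster led by Gm26917, B830012L14Rik and A330076H08Rik (24.9 CPM on 7 UMIs) and that led by Aldh1a3, Ngfr and Cntfr (14.96 CPM). Cells with Hand2, a gene of the posterior limb bud, held Alx4 less often at E12.5: 6 of 390 thinned cells (1.54%) against 3.97% of 3775 cells without it, a difference of -2.44 percentage points (-3.50 to -0.567). Lhx9 was also lower in those cells (5.38% against 9.56%), and Barx1 was higher (5.38% against 2.86%). These 3 of 10 members differed beyond counting error, beside 6.92% of the 15014 genes tested. The set was defined by Shh or Hand2, but in connective tissue-like cells Shh had 0 UMIs in the younger and 1 in the older library. Alx4 overlaps Ext2 on the opposite strand (1712 and 2460 UMIs of its own), here over the 3′ end of Alx4, and any part of overlap reads in the Alx4 count was not tested.

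Emx2 (ENSMUSG00000043969, chr19:59458372-59465357, plus strand) kept the largest part of its level in connective tissue-like cells, 1256 and 727 UMIs as given above. It was lower in chondrocyte-like cells, from 65 UMIs (19.6 CPM) to 10 UMIs (2.53 CPM; -2.95, -4.08 to -1.98), and in tenocyte-like cells from 71.3 to 15.2 CPM (-2.23, -2.98 to -1.52). Its highest E12.5 clusters, led by Calb2, Apcdd1 and Arhgap20 (149 CPM, 133 to 166) and by Gria2, Isl1 and Ptn (148 CPM, 127 to 171), did not differ beyond their intervals. At E15.5 the cluster led by Dpt, Ly6a and Cd55 held 72.3 CPM and that led by Spink6, Anxa8 and Tppp3 held 47.03 CPM. The gene most like it across E12.5 clusters was Emx2os (r = 0.90), the antisense gene that overlaps its start (chr19:59425104-59458635, minus strand), which went from 39.6 to 15.6 CPM in connective tissue-like cells (-1.34). The genes overlap only at their starts, and each has its own count. Strand use in counting is not given in the sources used here, and any part of overlap reads in the Emx2 count was not tested.

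Barx1 (ENSMUSG00000021381, chr13:48662998-48666507, plus strand) was the member of the joint-like cells. At E12.5 it had 215 of its 593 UMIs in the joint-like cluster led by Gdf5, Sfrp2 and Gm26771 (91.8 CPM, 79.9 to 105), and the next cluster, chondrocyte-like and led by Epyc, Matn1 and Acan, held 47.1 CPM. Connective tissue-like cells went from 274 UMIs (16.8 CPM) to 114 UMIs (6.402 CPM), a ratio of -1.39 (-1.72 to -1.07), and when both libraries were clustered together the ratio was -0.70. In chondrocyte-like cells the order was the opposite: 54 UMIs (16.3 CPM) at E12.5 and 121 UMIs (30.7 CPM) at E15.5, with a ratio of 0.92 (0.44 to 1.41) just short of the 2-fold limit. Over the alternatives tried this ratio ran from 0.18 to 1.65. Joint-like cells formed a named class at E12.5 only, and at E15.5 the unnamed cells held the 6 joint markers at 1267 CPM. In chondrocyte-like cells the 6 joint markers went from 520 to 904 CPM and the 14 connective tissue markers from 2975 to 8534 CPM. The 12 chondrocyte markers there went from 12818 to 5262 CPM. The part of these shifts in the Barx1 difference was not tested. The 2 highest E15.5 clusters, at 33.6 and 33.2 CPM, were the chondrocyte-like clusters in which Lhx9 was also highest. Gdf5, a joint signal, was the gene most like Barx1 across E12.5 clusters (r = 0.86), and it went from 21.3 to 0.899 CPM in connective tissue-like cells. Within connective tissue-like cells at E12.5, Barx1 was found in 16 of 160 thinned cells with a Gdf5 UMI (10.0%) and in 2.82% of 4005 without, a difference of 7.18 percentage points (3.39 to 12.8). Msx1 (4.38% against 0.724%) and Lhx9 (13.8% against 8.99%; a difference of 4.76, 0.176 to 11.01) were higher in the Gdf5 cells too, and Emx2 lower (5.62% against 12.8%). In this split 4 of 10 members differed beyond counting error, beside 8.64% of the genes tested.

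Forelimb and hindlimb cells, which the libraries mix, were separated in part by their own genes. Tbx5 marks the forelimb and Pitx1 and Tbx4 the hindlimb. Of 4165 thinned connective tissue-like cells at E12.5, 353 held Tbx5 only and 1531 held Pitx1 or Tbx4 only. The remaining cells, with both or neither, were assigned to no limb. Levels of these genes also varied between connective tissue-like clusters, from 22.4 to 107 CPM for Tbx5 and from 62.1 to 369 CPM for Pitx1. Sex of the cells also went with the split. Of the Tbx5-only cells 94 were called male and 166 female, and of the Pitx1-or-Tbx4-only cells 169 and 1056. The part of clusters, sex and embryo in the split was not tested. Of the 10 members 4 differed at E12.5, as did 8.61% of the 15014 genes tested. Lhx9 was found in 5.95% (3.72 to 8.95) of Tbx5-only cells and 12.3% (10.7 to 14.1) of Pitx1-or-Tbx4-only cells, a difference of -6.396 percentage points (-9.07 to -3.04). Shox2 was also lower in Tbx5-only cells, at 63.2% against 70.7% (-7.57, -13.2 to -2.17). The other two were higher there: Emx2 at 17.3% against 9.01% (8.27, 4.36 to 12.8), and Alx1 at 3.40% against 0.784% (2.62, 1.06 to 5.09). Pitx1 and Tbx4 were also the genes most like Lhx9 across E12.5 clusters (r = 0.86 and 0.85). At 4000 UMIs per cell 2 of 10 members differed, with fewer cells. These 4 members also differed between female and male connective tissue-like cells at E12.5. Levels were 67.8 and 25.6 CPM for Lhx9, 900 and 620 for Shox2, 55.2 and 112 for Emx2, and 4.31 and 28.4 for Alx1. The limb differences thus cannot be told apart from those of sex and embryo.

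At E15.5 only 61 Tbx5-only and 279 Pitx1-or-Tbx4-only cells were found among 1661 thinned cells. Alx1 was found in 4 of the 61 (6.56%) and 0 of the 279, which allows a share of up to 1.08%, a difference of 6.56 percentage points (2.35 to 15.7). Emx2 was at 8.20% against 3.23%, a difference of 4.97 (-0.447 to 14.7), and Shox2 at 32.8% against 40.9%, so neither differed beyond counting error. Lhx9 was found in neither set, which allows up to 4.92% and 1.08%. For the limb split at E15.5 the share of all genes that differed was not computed.

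**Figure D5:**
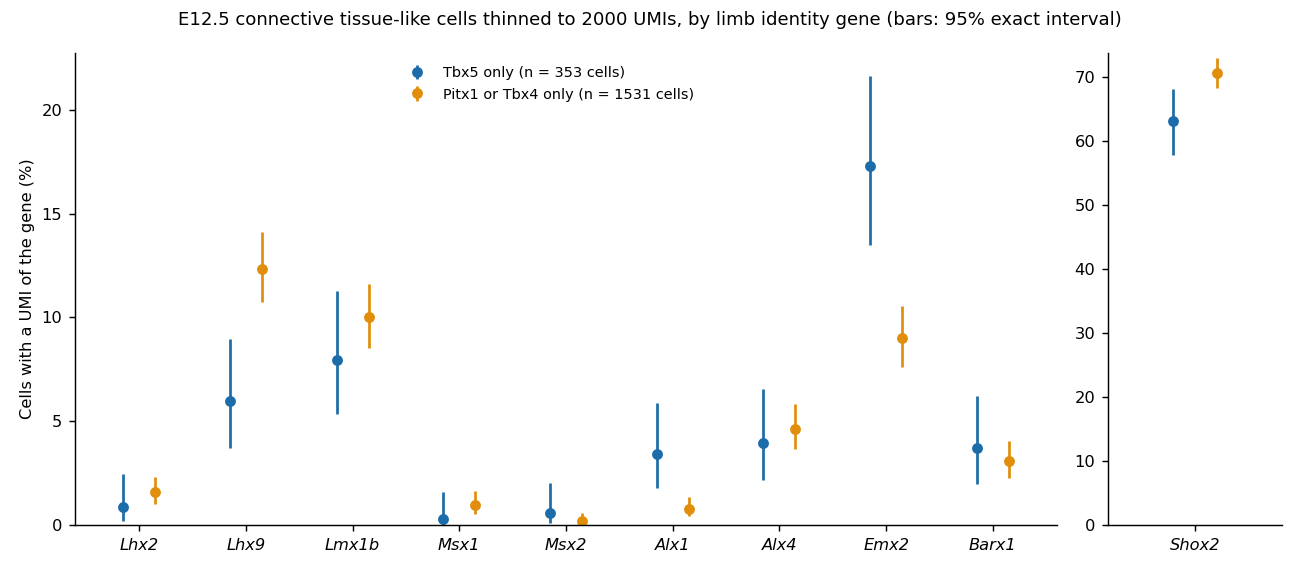
Percent of thinned connective tissue-like cells with a UMI of each of the 10 genes (x axis) at E12.5, among 353 cells with Tbx5 only and 1531 cells with Pitx1 or Tbx4 only; bars are 95% Clopper-Pearson intervals, and Shox2 has its own scale. Emx2 is at 17.3% against 9.01% and Lhx9 at 5.95% against 12.3%. The sets also differed in the sex of their cells.

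Other splits touched single members. Cells with Lmx1b held Shox2 more often at E12.5 (76.1% of 360 cells against 59.5% of 3805). At E15.5 Lmx1b was found in 7.21% of 111 cells with Hand2 (or the single Shh UMI) and in 2.06% of 1550 without. The share of all genes that differed was not computed for this E15.5 split. A proximal against distal split could not be read, since only 20 younger and 7 older cells held Hoxa13 or Hoxd13 without Meis1 or Meis2. All 45 pairs of members were compared in the same way, and the intervals were apart for 7 pairs at E12.5 and none at E15.5. Over all pairs of a member and another gene tested, they were apart for 2.09% in the younger and 0.588% in the older library. In the older one, 4 members were found in at most 4 thinned connective tissue-like cells each, so little could be detected there. Besides Lhx2 with Lhx9 and Lmx1b with Shox2, Alx4 was more frequent in cells with Lhx2 (14.0% against 3.62%) and in cells with Shox2 (4.89% against 1.97%). The remaining 3 pairs went the other way: Emx2 was found in 5.76% of cells with Lhx9 against 13.2% without, and in 0 of 36 cells with Msx1 (which allows up to 8.33%) against 12.6%. Barx1 was found in 59 of 2537 cells with Shox2 (2.33%) against 70 of 1628 without. Msx1 with Msx2 and Alx1 with Alx4, the other related pairs, had overlapping intervals, and no p-value was computed for any pair.

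The members were then set beside wider lists of limb genes in connective tissue-like cells. Of 30 other limb homeobox genes and paralogs, 24 had enough UMIs, and 14 were lower and 5 higher (median log2 ratio -1.52). Among the lowest ratios were those of Dlx6 (6.06 to 0.112 CPM, -5.75) and Dlx5 (19.3 to 1.80 CPM, -3.42). The Dlx genes act in the apical ectodermal ridge and in skeletal cells. The highest were Lmx1a (0.306 to 1.91 CPM, 2.64) and Lhx8 (0.306 to 1.46 CPM, 2.25), both relatives of members at low level, and Irx1 (2.45 to 11.2 CPM, 2.20).

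All 20 Hox and TALE genes, which give position along the limb, had enough UMIs, and 11 were lower and 1 higher (median -1.17). The lowest were Hoxd9 (26.0 to 6.12 CPM, -2.09), Hoxc8 (41.0 to 11.6 CPM, -1.82) and Hoxd11 (41.7 to 12.9 CPM, -1.70), and the higher gene was Meis3 (5.15 to 17.9 CPM, 1.80). Of 42 limb bud signals and partners 37 were tested, and 20 were lower and 1 higher (median -1.12). Lef1, a Wnt effector (51.7 to 3.26 CPM, -3.99), Ptch1, the hedgehog receptor and target (232 to 24.7 CPM, -3.23), and Fgf8 (4.53 to 0.505 CPM, -3.16) were lowest, and Fgf10 was the higher one (8.88 to 35.6 CPM, 2.003). The LIM-domain cofactors Ldb1 (-0.72) and Ldb2 (0.08), partners of Lhx2, Lhx9 and Lmx1b, were called neither way. In each list the share of lower genes was above the 23.2% of all genes tested, and these lists were compiled with earlier results of these libraries known.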

How the data were processed

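Single-cell data of 1 library per age were analysed. The deposited values are unnormalized UMI counts for each gene in each barcode, written by the authors' run of Cell Ranger per the file headers. The submitters' processing notes name Cell Ranger 4.0.0, Seurat 4.3.0 and build mm10, and further settings, strand use included, are not given in the sources used here. The matrices held 12941 barcodes with 34907675 UMIs (E12.5) and 5780 barcodes with 46966083 UMIs (E15.5), each with at least 500 UMIs.

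Barcodes with under 500 genes or over 10% mitochondrial UMIs were left out. Doublets were simulated from pairs of cells, and the cells with the highest doublet scores, at 0.8% per 1000 cells, were removed (1270 and 190). Each library was clustered on its own (2000 variable genes, 30 components, 15 neighbours, Leiden resolution 1; leidenalg 0.10.2, igraph 0.11.9, scikit-learn 1.9.0). The members, the wider lists and the sex and limb genes, 110 in all, were left out of the variable genes. A cluster was named where at least 3 markers of a list were above the rest of the library by 2-fold and present in at least 10% of its cells, with 1 or more among its 10 leading genes. Connective tissue-like clusters had no such name and passed the same limits for connective tissue markers against the non-mesenchymal clusters. The E15.5 Schwann-like class holds a cluster led by the melanocyte genes Dct and Pmel.

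Summed UMIs per class gave CPM with exact Poisson intervals (95%), ratios with the exact conditional interval, shares with Clopper-Pearson intervals and share differences with Newcombe intervals (Python 3.11.15, numpy 2.4.6, scipy 1.17.1). A count of 0 was read as up to 3 counts. The ratio script was tested on simulated data. Likeness is Pearson's r of log2(CPM + 10) over E12.5 clusters of at least 50 cells, among genes reaching 50 CPM, with 3 genes kept per member. The text names for each member the clusters with the highest levels, and from each wider list up to 3 genes with the highest and 3 with the lowest called ratio. Members and lists were chosen with earlier results of these data known. Alternatives covered clustering, filters, doublets, scaling, thinning, the call limit, the cells' sex, and clusters merged or left out. With 1 library per age, cells are not replicates, and spread between embryos was not analysed here. Of the genes and sequences this rule covers, 1 gene and 1 pair of homeobox sequences are not reported here.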

Additional observations from a re-analysis of the deposited data

Results flagged for a closer look

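Msx1 was higher at E15.5 in endothelial-like cells, with a log2 ratio of 2.27, and lower in connective tissue-like and chondrocyte-like cells. Barx1 was at a higher level at E15.5 in chondrocyte-like cells, with a log2 ratio of 0.92 that fell short of the 2-fold limit, and lower in connective tissue-like cells. Joint-like cells formed a named class at E12.5 only, and at E15.5 the unnamed cells held the joint markers at 1267 CPM. The part of joint cells in the Barx1 difference was not tested. Alx1 in connective tissue-like cells had a log2 ratio of 0.73 in female and of -2.80 in male cells, and of -3.82 in cells of unclear sex. In these 3 cases the classes or sexes moved in opposite directions, and the difference between them was not tested. The clusters left without a name also held member signal: 7 members had more than 3 UMIs there at E12.5, and 9 at E15.5. At E12.5 these cells had 783 CPM of Shox2 and 40.9 CPM of Lmx1b, and at E15.5 they had 146 and 24.4 CPM.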

How the results depend on the processing

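Every member kept its direction over the whole library and in connective tissue-like cells under all alternatives, except where cells of 1 sex were used alone. The Msx1 ratio over the whole library was 0.40 in male cells (13 and 28 UMIs), and the Alx1 ratio in female cells was 0.15 over the whole library and 0.73 in connective tissue-like cells. The number of members lower in chondrocyte-like cells was 1 in male cells, against 6. The number of members with a share lower beyond its interval at E15.5 was 1 without thinning, against 8, and Shox2, Emx2 and Alx4 were then higher. At 4000 UMIs per cell, a setting chosen after seeing the data, 2 members differed between limb sets, against 4, and 3 pairs were apart, against 7. With a 4-fold limit the other homeobox genes had 7 lower and 3 higher, the Hox and TALE genes 1 lower and 0 higher, and the signals 6 lower, while 1159 of all genes were lower and 578 higher. With at least 100 UMIs 3 other homeobox genes were higher. Relative to the median gene, 7 Hox and TALE genes were lower, and of the signals 13 were lower and 3 higher. The fewer genes and cells of these settings are part of their construction, and other causes were not tested. In connective tissue-like cells the Alx1 ratio was -0.55 with at least 1000 genes per cell, and Alx4 was -0.56 in male cells. Merging mesenchymal and unnamed clusters, and the values without the cluster led by Gria2 and Isl1, were also chosen after seeing the data. Depth limits Msx2, Lhx2 and Lhx9 most, with 9, 64 and 103 UMIs at E15.5. No paired analysis was possible because each age has 1 library.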
